A study of Mus musculus with 12 samples.

Results

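The genes described are the 10 of the MHC class II presentation pathway that load and display peptides, namely H2-Aa, H2-Ab1, H2-Eb1, H2-DMa, H2-DMb1, H2-DMb2, H2-Oa, H2-Ob, Cd74 and Ciita. They were chosen by name and matched by symbol to the 55536 Ensembl identifiers of the count table, which held all 10. Their expression was measured in megakaryocytes (MKs), the cells that release platelets, sorted from the bone marrow (BM) and the spleen of C57BL/6 Pf4-TdTomato mice, in which Cre under the Pf4 promoter switches on a red fluorescent protein. Mice had received saline or cecal slurry (CS), a suspension of gut contents that causes sepsis, and were examined on day 5. Crossing tissue with treatment gives 4 groups (BM saline and BM sepsis, splenic saline and splenic sepsis), which all carry the reporter and had 3 libraries each, called independent replicates in the study. The study counts its replicates as mice, and the labels do not tie single libraries to animals. Each of the 12 libraries was made from 300 cells that were CD45+, Lineage-, Pf4-tomato+, CD41+ and CD42b+, and the study's text adds that they were CD138-. The labels do not state the age or sex of the animals. The study's text says that males and females were used and gives an age range in weeks for its experiments as a whole. It does not give either item for single libraries. Each value is thus a mean over pooled cells, in which fewer cells of a type and less RNA per cell cannot be told apart.

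MHC class II molecules are pairs of an alpha and a beta chain that show peptides from engulfed proteins to CD4+ T cells, and they are carried mainly by B cells, dendritic cells and macrophages. H2-Aa and H2-Ab1 encode the chains of I-A, and H2-Eb1 encodes the beta chain of I-E, whose alpha chain C57BL/6 mice do not make. Cd74 encodes the invariant chain, which guides new class II molecules to the endosome and blocks their groove. H2-DM, with an alpha chain from H2-DMa and a beta chain from H2-DMb1 or H2-DMb2, exchanges the remnant of the invariant chain for peptide, and H2-DO, from H2-Oa and H2-Ob, holds H2-DM back. Ciita encodes a transactivator that switches class II genes on, without binding DNA itself, through factors seated on a shared X box and Y box upstream of them.

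The MK label held unevenly across the tissues. The summed CPM (counts per library total, scaled with TMM factors, on the usual CPM scale) of 8 MK markers ranged from 11622 to 47198 in BM libraries and from 1193 to 3504 in splenic ones, so MK markers were present in all 12 libraries but lower in spleen. The corresponding sum of 8 B cell markers ranged from 63.0 to 278 in BM and from 2682 to 10322 in spleen, although the Lineage cocktail included B220, which B cells carry. Immunoglobulin and T cell receptor segments made up 1.04% to 4.23% of the counts in BM and 13.0% to 30.1% in spleen. Here and below, these segments include the constant genes. Library totals ranged from 7756762 to 27386184 counts. Replicate 3 of spleen sepsis stood apart from the other two libraries of its group, with a B cell marker sum of 2682 CPM against 10322 and 9106.

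In the GRCm38 annotation, 8 of the 10 genes lie together. H2-Oa (chr17:34092340-34095234), H2-DMa (chr17:34119541-34139101), H2-DMb2 (chr17:34143307-34151555), H2-DMb1 (chr17:34153072-34160230), H2-Ob (chr17:34238903-34254414), H2-Ab1 (chr17:34257689-34269419), H2-Aa (chr17:34282744-34287823, minus strand) and H2-Eb1 (chr17:34305867-34316674) follow each other on chromosome 17. Ciita lies at chr16:10480059-10528418. Some counts cannot be assigned with certainty. H2-DMb1 and H2-DMb2 are near copies, and 22.7% of the 50-base stretches in the transcripts of H2-DMb1 and 25.9% of those of H2-DMb2 also occur in another gene, the pair sharing 369 stretches, which are all of those counted for H2-DMb1 and most of the 451 counted for H2-DMb2. Exons of H2-Oa overlap BC051537 on the opposite strand over 22.8% of their length, those of H2-DMa overlap Brd2 over 10.4%, and those of Ciita overlap Dexi over 3.45%, and the sources used here do not give the strand setting of the counting.

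The upstream sequence of 7 of the 10 genes was found among the RefSeq promoters of GRCm38.p6 (250 bases before to 50 after each start of transcription). H2-Ab1, Ciita and the gene of the invariant chain were not matched. The core of the X box was searched as CCTAGNNAC and the Y box as ATTGG, both on either strand. A gene was counted if any of its promoters held the letters, whereas the shares given beside are of single promoters. A Y box occurred in 7 of 7 genes, as in 37.4% of all 32851 promoters, and the X box core occurred in H2-DMb1 and H2-Ob, as in 3.91% of all promoters. In both of these genes a Y box started 10 to 40 bases after the X box core, a pair found in 0.131% of all promoters. The longer form TGATTGG, which contains the Y box and was searched after the promoters had been seen, occurred in 6 of the 7 genes, all but H2-DMa, against 7.82% of all promoters. It began between 45 and 92 bases before the start. The 150 bases before the start of transcription of those 6 genes are shown on the strand of the gene, with the X box core and TGATTGG in capitals.
H2-DMb1: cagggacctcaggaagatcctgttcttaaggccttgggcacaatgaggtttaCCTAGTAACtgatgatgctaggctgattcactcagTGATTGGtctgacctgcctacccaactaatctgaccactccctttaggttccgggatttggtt
H2-Ob: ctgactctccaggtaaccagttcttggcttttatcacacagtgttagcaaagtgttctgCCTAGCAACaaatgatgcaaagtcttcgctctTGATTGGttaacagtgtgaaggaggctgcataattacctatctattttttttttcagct
H2-DMb2: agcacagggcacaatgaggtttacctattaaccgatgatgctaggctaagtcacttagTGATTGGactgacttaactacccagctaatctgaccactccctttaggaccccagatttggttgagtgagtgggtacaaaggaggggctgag
H2-Aa: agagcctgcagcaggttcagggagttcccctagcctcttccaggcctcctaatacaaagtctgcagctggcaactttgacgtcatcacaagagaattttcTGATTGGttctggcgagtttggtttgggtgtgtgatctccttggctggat
H2-Eb1: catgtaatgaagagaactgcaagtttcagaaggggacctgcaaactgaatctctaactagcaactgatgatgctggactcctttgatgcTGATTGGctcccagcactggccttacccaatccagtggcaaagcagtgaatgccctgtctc
H2-Oa: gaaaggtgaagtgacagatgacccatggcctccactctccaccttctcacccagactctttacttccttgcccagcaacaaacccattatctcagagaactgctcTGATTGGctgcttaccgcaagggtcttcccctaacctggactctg
The windows are chr17:34153041-34153190 for H2-DMb1, chr17:34238755-34238904 for H2-Ob, chr17:34145099-34145248 for H2-DMb2, chr17:34287824-34287973 (minus strand) for H2-Aa, chr17:34305717-34305866 for H2-Eb1 and chr17:34092229-34092378 for H2-Oa. The near copies H2-DMb1 and H2-DMb2 both carried TGATTGG, 63 and 92 bases before their starts, and the searched X box core was present in the window of H2-DMb1 and not in that of H2-DMb2. The search took exact letters only, so a window without the searched core can still hold a variant of the X box. These matches describe letters and not binding.

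The class II genes were far higher in splenic than in BM libraries, after saline and after sepsis. All 10 genes had a positive log2 fold change of spleen over BM in both comparisons, and the median over the 10 was 4.204 after saline and 5.47 after sepsis, where the median over all 20263 genes tested was 0.28 and 0.18. By edgeR's quasi-likelihood test with Benjamini-Hochberg adjustment over all genes tested, 6 of the 10 were called higher in spleen after saline (0.725% of all tested genes) and 7 after sepsis (1.18% of all tested genes), with an adjusted p under 0.05. The lowest of the 6 splenic libraries lay above the highest of the 6 BM libraries for 7 of the 10 genes, against 1.87% of all tested genes. Reads of the 10 genes made up 0.0182% to 0.0975% of all counts in BM libraries and 0.654% to 2.48% in splenic libraries.

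**Figure D1:**
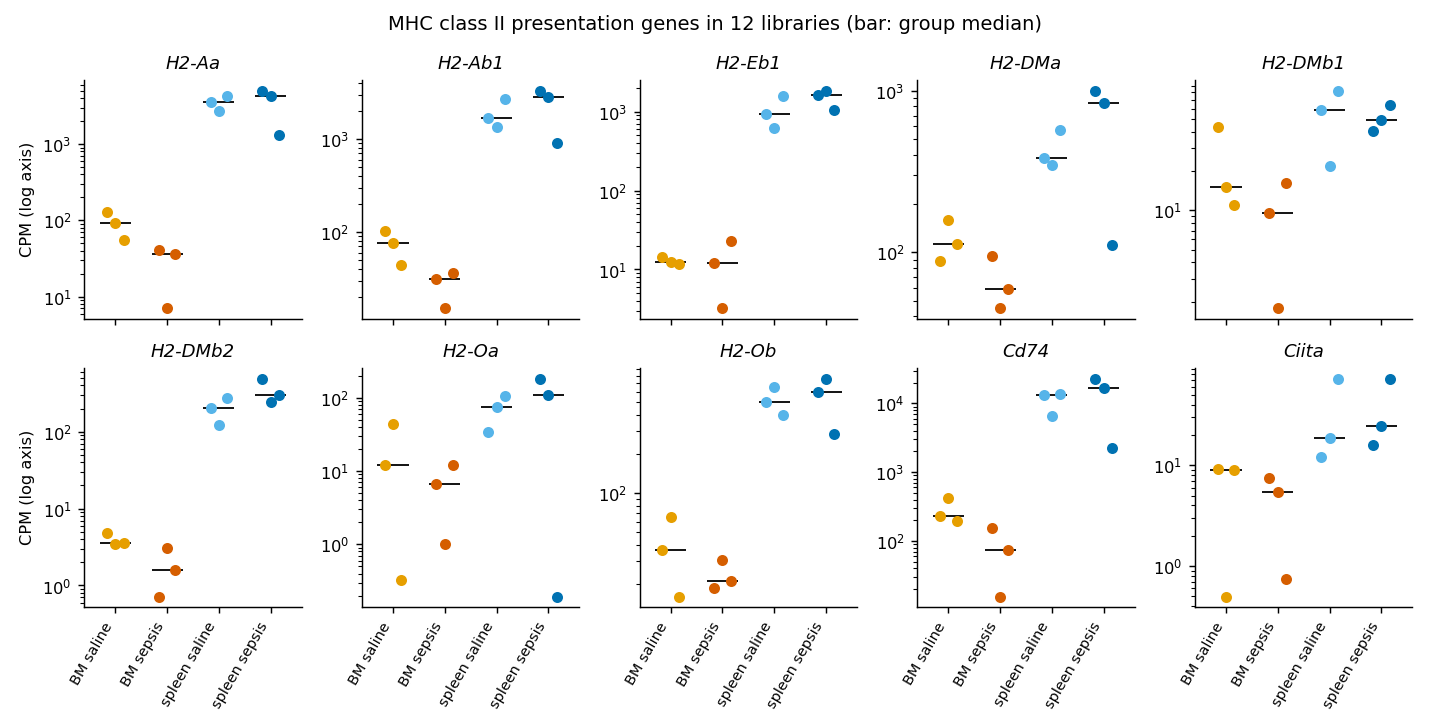
CPM of each of the 10 genes (vertical log axis, a separate range in each panel) in the 3 libraries of each of the 4 groups, with replicates 1 to 3 from left to right and a bar at the group median. The 6 splenic libraries lie above the 6 BM libraries for 7 genes, and the exceptions are H2-DMa, H2-DMb1 and H2-Oa.

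Among the classical chains, H2-Aa measured 128, 91.3 and 54.8 CPM in BM saline, 40.8, 7.06 and 36.5 CPM in BM sepsis, 3502, 2701 and 4223 CPM in spleen saline, and 5011, 4280 and 1295 CPM in spleen sepsis (replicates 1, 2 and 3). The lowest splenic library was about an order of magnitude above the highest BM library. On the log2 scale H2-Aa was higher in spleen by 5.25 ± 0.71 (SE) in saline-treated mice (adjusted p = 0.00086) and by 6.97 ± 0.76 in septic mice (adjusted p = 6.6e-05).

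H2-Ab1, the partner of H2-Aa in I-A, measured 103, 76.3 and 43.6 CPM in BM saline and 31.4, 15.1 and 35.9 CPM in BM sepsis. In spleen it measured 1686, 1333 and 2706 CPM after saline and 3314, 2803 and 895 CPM after sepsis. The tissues did not overlap, and as for H2-Aa the lowest splenic library was replicate 3 of spleen sepsis. Its log2 fold change reached 4.68 ± 0.62 (adjusted p = 0.00086) in saline mice, and in septic mice 6.41 ± 0.68 (adjusted p = 6.5e-05).

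H2-Eb1 was the lowest of these 3 chains in every BM library after saline, at 14.3, 12.5 and 11.8 CPM, and measured 12.1, 3.23 and 22.9 CPM in BM sepsis. In spleen it measured 926, 617 and 1577 CPM after saline and 1613, 1847 and 1046 CPM after sepsis. The 6 values of each tissue stood well apart, and the log2 fold change was 6.33 ± 0.72 in saline mice (adjusted p = 0.00027). In septic mice it was 6.87 ± 0.74 (adjusted p = 6.5e-05). The latter became 7.58 when BM sepsis replicate 3 was left out. H2-Ea-ps, the inactive alpha chain gene of I-E in this strain, was not tested because of low counts, and its highest value in any library was 1.44 CPM.

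Cd74, the invariant chain, lies on chromosome 18 and had the highest mean of the 10 genes in every group. It measured 230, 424 and 195 CPM in BM saline and 155, 15.6 and 73.9 CPM in BM sepsis. In spleen it reached 13179, 6593 and 13860 CPM after saline and 22661, 16620 and 2284 CPM after sepsis. No splenic library came near the BM range, and spleen sepsis replicate 3 was the lowest of the 6. The log2 fold change of Cd74 was 5.31 ± 0.84 in saline mice (adjusted p = 0.0025), and 7.41 ± 0.93 in septic mice (adjusted p = 0.00018). The latter was 8.25 without BM sepsis replicate 1 and 6.79 without spleen sepsis replicate 1, and Cd74 was not called in either comparison by limma-voom with quality weights (adjusted p = 0.26 in saline and 0.161 in septic mice).

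The chains of H2-DM did not move alike. H2-DMa, the alpha chain, measured 88.8, 159 and 113 CPM in BM saline and 94.6, 44.98 and 59.01 CPM in BM sepsis. It measured 382, 347 and 571 CPM in spleen saline and 1001, 840 and 111 CPM in spleen sepsis. The groups did not overlap within either treatment, but spleen sepsis replicate 3 fell among the BM saline libraries. H2-DMa passed the test after sepsis (log2 fold change 3.30 ± 0.68, adjusted p = 0.0133) and did not pass it after saline (1.85 ± 0.64, adjusted p = 0.234). Without spleen sepsis replicate 3 H2-DMa passed in saline mice too (1.81, adjusted p = 0.0262), DESeq2 likewise called it there (2.10, adjusted p = 0.0203), and when the 6 libraries of the sepsis comparison were fitted alone it was not called (adjusted p = 0.078).

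H2-DMb2, a beta chain of H2-DM, was nearly absent from BM, at 4.81, 3.48 and 3.55 CPM after saline and 0.717, 3.06 and 1.58 CPM after sepsis. In spleen it measured 201, 122 and 275 CPM after saline and 486, 243 and 300 CPM after sepsis. The tissues were separated by more than an order of magnitude in every library, and H2-DMb2 had the largest log2 fold change of the 10 genes after sepsis, 7.59 ± 0.77 (adjusted p = 6.5e-05). In saline mice the value was 5.65 ± 0.71 (adjusted p = 0.00053).

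H2-DMb1, the other beta chain gene, showed a much smaller difference. It measured 43.1, 15.01 and 10.98 CPM in BM saline and 9.58, 1.79 and 16.2 CPM in BM sepsis, against 58.3, 22.03 and 82.4 CPM in spleen saline and 40.8, 48.97 and 63.96 CPM in spleen sepsis. The saline groups overlapped and the sepsis groups did not. In saline mice H2-DMb1 had a log2 fold change of 1.23 ± 0.86 (95% interval -0.57 to 3.03, adjusted p = 0.576), and in septic mice 2.47 ± 0.89 (adjusted p = 0.257), so neither was called by edgeR, while DESeq2 called H2-DMb1 in septic mice (2.66, adjusted p = 0.0213).

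The balance between the beta chain genes was opposite in the tissues, a pattern picked out after the values had been seen and given without a test. On the scale of CPM per kilobase of exon, the ratio of H2-DMb2 to H2-DMb1 was 0.107, 0.223 and 0.311 in BM saline and 0.072, 1.65 and 0.0935 in BM sepsis. It was 3.32, 5.34 and 3.21 in spleen saline and 11.5, 4.77 and 4.51 in spleen sepsis. H2-DMb1 was the higher gene in 5 of 6 BM libraries and H2-DMb2 in 6 of 6 splenic libraries. The exception, BM sepsis replicate 2, rested on 36 counts of H2-DMb2 and 21 counts of H2-DMb1. The shared sequence of the pair stated above limits how far its reads can be divided.

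**Figure D2:**
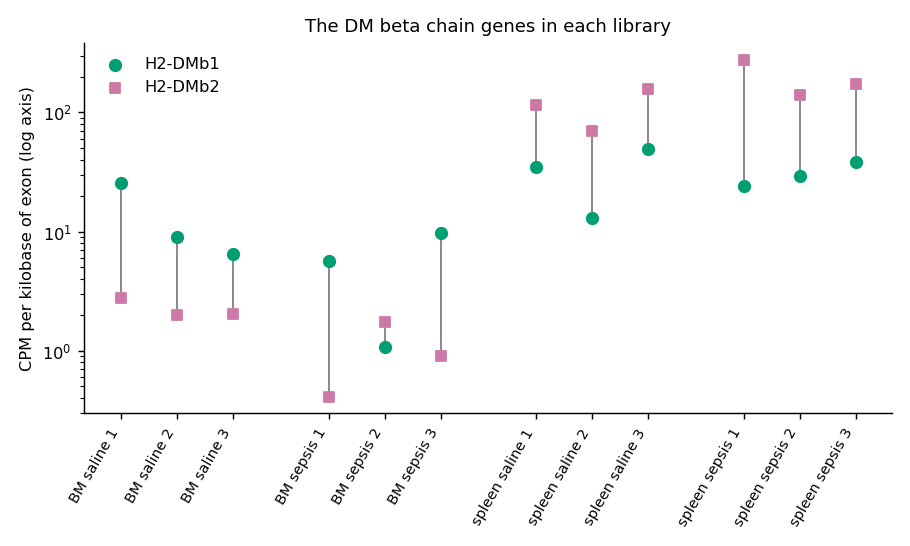
CPM per kilobase of exon (log axis) of H2-DMb1 (circles) and H2-DMb2 (squares) in each of the 12 libraries, joined by a line within a library. The circle is above the square in 5 of 6 BM libraries and below it in 6 of 6 splenic libraries.

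H2-DO, the inhibitor of H2-DM, also had 1 chain that differed clearly and 1 that varied within groups. H2-Ob, the beta chain, measured 36.3, 65.4 and 16.05 CPM in BM saline and 18.8, 30.5 and 21.3 CPM in BM sepsis, against 502, 656 and 401 CPM in spleen saline and 597, 753 and 287 CPM in spleen sepsis. Every splenic library was above every BM library. H2-Ob was higher in spleen by 3.73 ± 0.62 on the log2 scale in saline mice (adjusted p = 0.0035). In septic mice the difference was 4.54 ± 0.64 (adjusted p = 0.00057).

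H2-Oa, the alpha chain, measured 12.1, 43.7 and 0.323 CPM in BM saline, 6.72, 1.02 and 12.1 CPM in BM sepsis, 33.7, 73.8 and 105 CPM in spleen saline, and 180, 108 and 0.194 CPM in spleen sepsis. The lowest value in each of 2 groups rested on few reads, with 3 counts in BM saline replicate 3 and 2 counts in spleen sepsis replicate 3, which is the level that a count of 0 allows (3 counts, 0.291 CPM in the latter library). The tissues overlapped. In edgeR neither log2 fold change of H2-Oa passed, being 1.92 ± 1.39 in saline mice (adjusted p = 0.602) and in septic mice 3.86 ± 1.51 (adjusted p = 0.315). Without spleen sepsis replicate 3, in which H2-Ob was still at 287 CPM, it was called after sepsis (4.42, adjusted p = 0.0451), as it was with no filter on low counts (adjusted p = 0.0149) and by DESeq2 (adjusted p = 0.0392).

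Ciita, the transactivator gene, was measured at low levels throughout. It stood at 9.19, 0.497 and 8.94 CPM in BM saline and 7.498, 5.44 and 0.737 CPM in BM sepsis, against 12.2, 18.7 and 71.8 CPM in spleen saline and 15.8, 24.3 and 71.7 CPM in spleen sepsis. All 6 splenic libraries were above all 6 BM libraries, but within each tissue the libraries spread widely. Neither difference of Ciita was called by edgeR, with a log2 fold change of 2.46 ± 1.19 in saline mice (adjusted p = 0.399) and in septic mice 3.03 ± 1.22 (95% interval 0.48 to 5.59, adjusted p = 0.334). DESeq2 called Ciita in septic mice (3.21, adjusted p = 0.045). Spleen sepsis replicate 3 was the lowest of the 6 splenic libraries for Cd74, H2-Aa, H2-Ab1, H2-DMa, H2-Oa and H2-Ob. The same library was the second highest for H2-DMb1 and H2-DMb2, and level with the highest for Ciita.

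**Figure D3:**
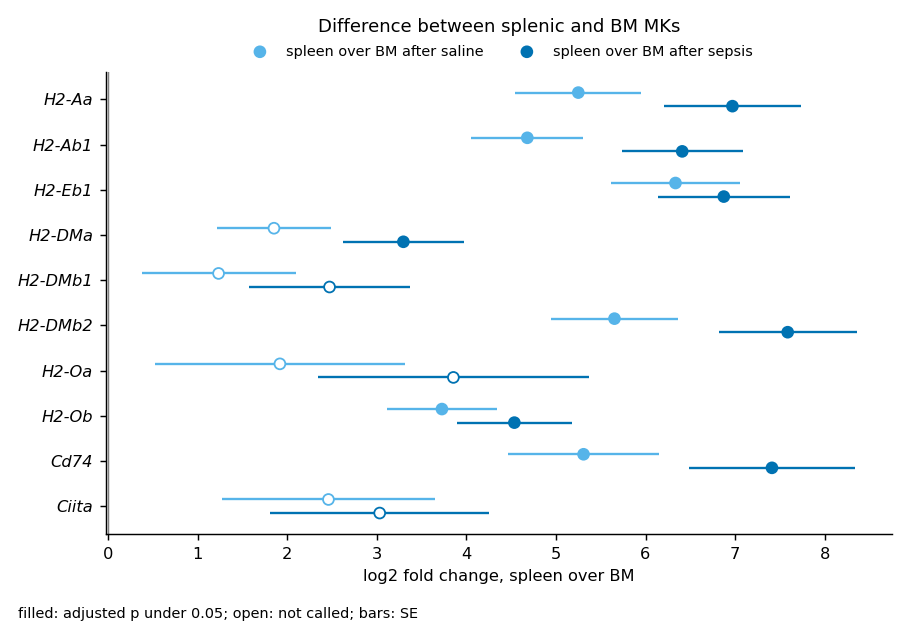
Log2 fold change of spleen over BM for each of the 10 genes after saline (light) and after sepsis (dark), with bars for the SE, filled where the adjusted p was under 0.05. All 20 points are above 0, and the open ones belong to H2-DMb1, H2-Oa and Ciita in both comparisons and to H2-DMa after saline.

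Levels per kilobase of exon put the genes in order within a group. In spleen saline Cd74 came first at 6677 ± 2390 CPM per kilobase (SD, n = 3), above H2-Aa at 915 ± 200.4, H2-Ab1 at 743 ± 277 and H2-Eb1 at 535 ± 252. Cd74 did not overlap the next gene in any library, whereas H2-Aa overlapped H2-Ab1, and H2-Ab1 overlapped H2-Eb1. H2-DMa (126 ± 34.9), H2-DMb2 (114 ± 43.7) and H2-Ob (96.6 ± 23.9) followed with overlapping libraries, then H2-Oa (50.3 ± 25.4) and H2-DMb1 (32.3 ± 18.1), and Ciita was last at 3.59 ± 3.43 CPM per kilobase. In BM saline the order was different below Cd74 (169 ± 73.3 CPM per kilobase), with H2-DMa second at 34.8 ± 10.4, overlapping H2-Ab1 (17.0 to 40.2), and H2-Eb1 eighth at 6.62 ± 0.64. When the length of the longest transcript was used in place of all exons, H2-Ab1 passed H2-Aa in spleen saline (1575 against 1078 CPM per kilobase), and H2-Ab1 also passed H2-DMa in BM saline (61.4 against 59.9 CPM per kilobase), so these orders depend on the length assumed.

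Ratios within a library showed which genes kept step, and they are given as descriptions without a test. The ratio of Cd74 to H2-Aa per kilobase ranged from 4.07 to 10.5 in BM and from 3.99 to 10.2 in spleen, so the invariant chain and the alpha chain kept the same range in both tissues. The ratio of H2-DMa to H2-Aa ranged from 0.764 to 7.02 in BM and from 0.0946 to 0.22 in spleen, with no overlap. H2-Aa to H2-Ab1 ranged from 0.315 to 0.877 in BM and from 0.978 to 1.404 in spleen. The smaller tissue difference of H2-DMa thus appeared as a lower ratio to the classical chains in every splenic library.

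Agreement among the 10 genes was also uneven. Pearson's r of the log2 CPM of a gene with the mean of the other 9 over the 12 libraries was 0.997 for H2-Ab1, 0.993 for H2-Aa, 0.983 for Cd74 and 0.967 for H2-Eb1, and it was lowest for Ciita (0.61) and H2-Oa (0.55). The libraries fall into 2 tissues, which share most of this relation, so the values describe likeness only. After the mean of each group was taken off, r was 0.99 for H2-Ab1, 0.89 for H2-Aa and 0.82 for both Cd74 and H2-Oa, but -0.13 for H2-DMb2 and -0.42 for Ciita.

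The genes outside the 10 whose pattern over the 12 libraries was most like their mean included a component of the B cell receptor and markers of B cells. The 8 with the highest r were Cd79b, which encodes a signalling chain of the B cell receptor (r = 0.99), Ly6d, Ly6a, Spib, B3gnt5, Bend5, Cr2, the complement receptor of B cells, and Cdh23 (r = 0.97), again over libraries of 2 tissues. Mean Cd79b was 86.6 CPM in BM saline, 47.1 CPM in BM sepsis, 1423 CPM in spleen saline and 2251 CPM in spleen sepsis. Spib, a transcription factor of B cells and plasmacytoid dendritic cells, had means of 1.41, 0.973, 64.3 and 94.2 CPM in the same order. With group means taken off, the 8 most alike were Dhx40, Nsa2, Dhps, Gm9493, Mtfmt, Arl5b, Mrpl48 and Tor1a (r between 0.92 and 0.95), none of which is on the lists of class II or cell type genes.

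Markers of some other cells moved with the class II genes, and their part in the tissue difference was not tested. Of 8 B cell markers, 7 were called higher in spleen in each comparison, all but Fcer2a, among them Ms4a1, which encodes CD20 (log2 fold change 5.27 ± 0.68 after saline and 7.83 ± 0.77 after sepsis). The ratio of Cd74 to Cd79a, the alpha signalling chain of the B cell receptor, ranged from 2.21 to 10.2 per kilobase in BM and from 5.71 to 15.8 in spleen, so the ranges overlapped although both genes differed between tissues by over an order of magnitude in the mean. Of 8 MK markers, 3 were called lower in spleen after saline (Pf4, Itgb3 and Vwf) and 3 after sepsis, among them Pf4 and Ppbp, and none was called higher. Of the class II genes 0 were called lower, where 0.523% of all tested genes were after saline and 0.597% after sepsis.

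Of 6 plasma cell markers, 4 were called higher in spleen after saline and 3 after sepsis, with Jchain, the joining chain of secreted antibody, at 6552 to 80009 CPM in splenic libraries. None of 8 conventional dendritic cell markers was called in either comparison. Their summed CPM was 106 to 193 in spleen saline and 4.95 to 35.0 in spleen sepsis, against 3.26 to 26.5 in BM, so spleen saline lay above BM and spleen sepsis overlapped it. Over the 8 markers the log2 fold change of spleen over BM ranged from 1.57 to 8.49 after saline (median 4.38) and from -6.62 to 8.19 after sepsis (median 0.70). Of 9 monocyte and macrophage markers, Ly6c2 alone was called higher in spleen, after saline, and C1qa, which was not tested, was at 0 in all 3 spleen sepsis libraries. Over the 8 tested, the log2 fold change of spleen over BM ranged from 0.31 to 4.12 after saline (median 2.75). After sepsis it ranged from -7.08 to 1.01 (median -1.37). The summed CPM of these markers was 585 to 1171 in spleen saline against 116 to 267 in BM saline. In the sepsis groups it was 234 to 432 in spleen against 329 to 1032 in BM. None of the 6 T cell markers and none of the 3 plasmacytoid dendritic cell markers tested was called, and Siglech, which defines plasmacytoid dendritic cells, had 0 counts in all libraries of spleen sepsis and BM sepsis. The summed CPM of T cell markers was 7.33 to 83.9 in BM and 31.9 to 1645 in spleen, and that of plasmacytoid markers was 64.1 to 138 in BM and 129 to 616 in spleen, most of it from Tcf4 and Bst2.

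Some regulators of Ciita were called higher in spleen, and the general promoter factors did not pass the test. Of 8 regulators of Ciita, 3 were called higher in spleen after saline and 4 after sepsis, with a median log2 fold change of 2.88 and 4.11. Ebf1, an early B cell factor, had a log2 fold change of 4.44 ± 0.70 in saline mice (adjusted p = 0.0025), and 5.36 ± 0.73 in septic mice (adjusted p = 0.00041), from 3.38 to 13.3 CPM in BM and 100.1 to 320 CPM in spleen. It was called in all 22 alternatives of each comparison. Without BM saline replicate 1 its value after saline was 5.37.

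Irf4, a factor of activated B cells and plasma cells, was higher by 6.52 ± 1.17 in saline mice (adjusted p = 0.0067) and by 4.78 ± 1.06 in septic mice (adjusted p = 0.022). The first was 7.19 without BM saline replicate 3 and 5.83 without spleen saline replicate 2, and the second became 6.52 when BM sepsis replicate 2 was left out. Leaving out replicate 1 or replicate 3 of BM sepsis took the second call away (adjusted p = 0.0724 and 0.0682), as did library size alone (4.16, adjusted p = 0.0659) and the fit of 6 libraries (adjusted p = 0.0604). Pax5, which holds B cell identity, was called after sepsis (6.42 ± 1.41, adjusted p = 0.0208) and not after saline (3.16 ± 1.21, adjusted p = 0.312). Its value in septic mice was 5.50 without spleen sepsis replicate 3, 5.83 without BM sepsis replicate 2 and 7.17 without BM sepsis replicate 3.

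Irf8, shared by B cells, dendritic cells and monocytes, was called in both (3.93 ± 0.87 and 3.44 ± 0.85, adjusted p = 0.0294 and 0.0416), but the second rested on spleen sepsis replicate 3 at 267 CPM and was 1.86 (adjusted p = 0.467) without it. Irf8 also lost the call after sepsis without any of the 3 BM sepsis libraries (adjusted p between 0.145 and 0.181) and after saline without any of the 3 BM saline libraries (adjusted p between 0.0715 and 0.143). Spi1 and Irf1, which act on Ciita in myeloid cells or after interferon, and Prdm1, which represses it in plasma cells, were not called under the reported settings. Prdm1 ranged from 3.93 to 7.75 after sepsis over the alternatives and was called in 4 of 22, DESeq2 among them (4.97, adjusted p = 0.0077). After saline it ranged from 1.93 to 7.15 and was called in 1 of 22.

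None of the 7 promoter factors was called in either comparison, and the median log2 fold change over them was 0.80 after saline and 0.41 after sepsis. Rfx5, Rfxap and Rfxank form the complex on the X box, Nfya, Nfyb and Nfyc the complex on the Y box, and Creb1 binds beside them. The complex subunits spread over a wide range, from -1.64 ± 1.31 for Nfya to 2.84 ± 1.96 for Rfxank after saline, and their SEs do not allow a small difference to be seen.

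Enzymes that prepare class II peptides were split. Of 7 antigen processing genes, 3 were called higher in spleen in each comparison, and they were Ctss, Lgmn and Ifi30. Ctss, cathepsin S, which trims the invariant chain in B cells and dendritic cells, ranged from 21.8 to 93.6 CPM in BM and from 215 to 1087 CPM in spleen. Its log2 fold change was 4.003 ± 0.71 in saline mice (adjusted p = 0.0067), and 3.78 ± 0.70 in septic mice (adjusted p = 0.0063). Its value after saline was 4.68 without BM saline replicate 2. Lgmn, an asparaginyl endopeptidase, differed by 4.84 ± 0.89 and 4.11 ± 0.85 (adjusted p = 0.008 and 0.0141), and Ifi30, the thiol reductase of the endosome, by 3.89 ± 0.76 and 3.61 ± 0.75 (adjusted p = 0.0126 and 0.0141).

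The calls of Lgmn and Ifi30 were lost under some alternatives. Lgmn was not called after saline in the fit of 6 libraries (adjusted p = 0.0553) or without BM saline replicate 3 (0.0637), or after sepsis without BM sepsis replicate 1 (0.128) or 2 (0.098). Ifi30 was not called after saline without BM saline replicate 1 (adjusted p = 0.0503) or after sepsis without BM sepsis replicate 2 (0.0506), and it was 4.67 without BM saline replicate 2 and 4.61 without BM sepsis replicate 3. Ctsl, Ctsb and Ctsd, which are further cathepsins, and Sppl2a, a protease that clears the remnant of the invariant chain, were not called.

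H2-Eb2, a relative of the I-E beta chain, was called after sepsis (log2 fold change 7.198 ± 1.66, adjusted p = 0.0263; 8.45 without BM sepsis replicate 2) and not after saline (4.46 ± 1.45, adjusted p = 0.187). The first call was lost with library size alone (6.38, adjusted p = 0.0611), and H2-Eb2 was called after saline by DESeq2 (adjusted p = 0.0037) and with no filter on low counts (adjusted p = 0.0366). March1, a ligase that removes class II from the surface, and Cd83, which protects it there, had log2 fold changes of 3.84 ± 0.95 and 3.77 ± 1.15 after saline and 3.61 ± 0.94 and 4.28 ± 1.18 after sepsis, none of them called (adjusted p between 0.055 and 0.146). March1 was called in 11 of 22 alternatives after saline and 8 of 22 after sepsis, and Cd83 in 2 and 9. Mif, the ligand of Cd74, had values in the other direction (-1.68 ± 0.54 and -1.07 ± 0.53) that were not called, and its signalling partners Cd44 and Cxcr4 were not called. Mif was called lower in spleen in 3 of 22 alternatives after saline and in 0 of 22 after sepsis.

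**Figure D4:**
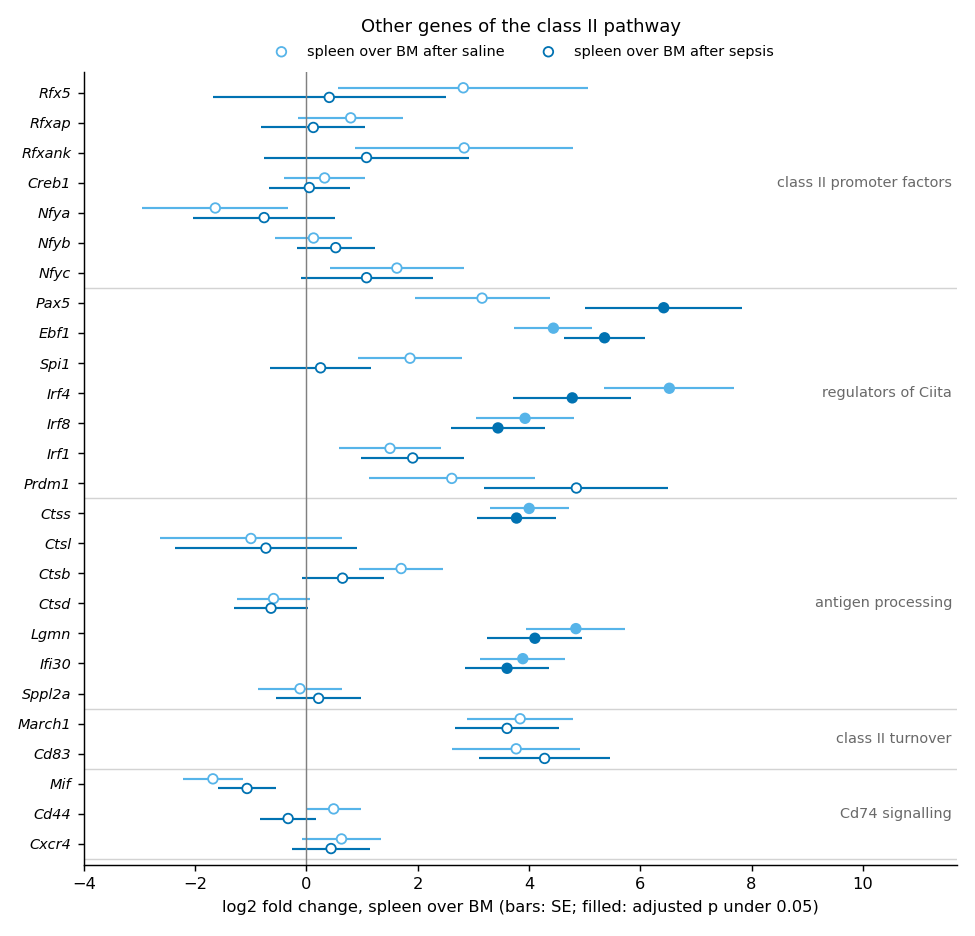
Log2 fold change of spleen over BM after saline (light) and after sepsis (dark) for other genes of the pathway in 5 lists, with bars for the SE, filled where the adjusted p was under 0.05. The filled points are those of Ebf1, Irf4, Irf8, Ctss, Lgmn and Ifi30 in both comparisons and of Pax5 after sepsis.

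By edgeR on the filtered counts no class II gene was called between sepsis and saline in either tissue. In BM, edgeR called 0 of 20263 genes between sepsis and saline (717 genes, 3.54%, had an unadjusted p under 0.05, while DESeq2 called 206 genes), and 0 of the 10. All 10 had a negative log2 fold change of sepsis over saline, against 53.5% of all tested genes, with a median of -1.24 where the median over all genes was -0.08. An unadjusted p under 0.05 was reached by H2-Aa (-1.70 ± 0.61), H2-Ab1 (-1.44 ± 0.55) and Cd74 (-1.80 ± 0.72), and in edgeR's quasi-likelihood test the adjusted p was 1 for each. With no filter on low counts edgeR called Cd74 in BM (-1.76, adjusted p = 4.1e-06). The 3 BM sepsis libraries were below the 3 BM saline libraries for H2-Aa, H2-Ab1, H2-DMb2 and Cd74, that is for 4 of the 10 against 4.16% of all tested genes.

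H2-Eb1 had the value nearest 0 in BM, -0.01 ± 0.58 (95% interval -1.21 to 1.19), which was -0.73 without BM sepsis replicate 3, and under some alternatives its sign and those of H2-Oa and Ciita turned positive. With no filter on low counts, Cd74 (adjusted p = 4.1e-06) and H2-Aa (adjusted p = 0.0216) were called lower in BM sepsis. The summed CPM of B cell markers was also lower, at 63.0 to 94.0 in BM sepsis against 168 to 278 in BM saline. For single markers the log2 fold change ranged from -2.78 to 0.61 (median -0.96), and 0 of 8 were called. The part of B cell markers in the lower class II values was not tested.

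In spleen, 0 of the 10 genes were called between sepsis and saline by edgeR, where 0.158% of all tested genes were called, and 0 had an unadjusted p under 0.05 (13.1% of all tested genes had one). DESeq2 called 0 of the 10 and 986 genes in all, and limma-voom called 0 genes in all. The log2 fold change was positive for 9 of the 10, against 47.4% of all tested genes, with a median of 0.30. It ranged from -0.08 ± 0.85 for H2-DMb1 to 0.78 ± 0.58 for H2-DMb2. Without spleen sepsis replicate 3 the median was 0.74, and 1 of the 10 had an unadjusted p under 0.05, as did 2289 of all 25900 genes tested. The intervals were wide, for instance -1.16 to 1.77 for Cd74 and -1.21 to 1.25 for H2-Aa, so changes inside these intervals could not be seen at this spread. Splenic libraries of the treatments overlapped for all 10 genes. Replicates 1 and 2 of spleen sepsis were above all 3 spleen saline libraries for H2-Aa, H2-Ab1, H2-Eb1, H2-DMa, H2-Oa and Cd74. Replicate 3 was below all 3 for H2-Aa, H2-Ab1, H2-DMa, H2-Oa, H2-Ob and Cd74. This split of the group was read off after the values had been seen. How often it occurred over all tested genes was not counted, so it describes the spread and not an effect of sepsis.

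**Figure D5:**
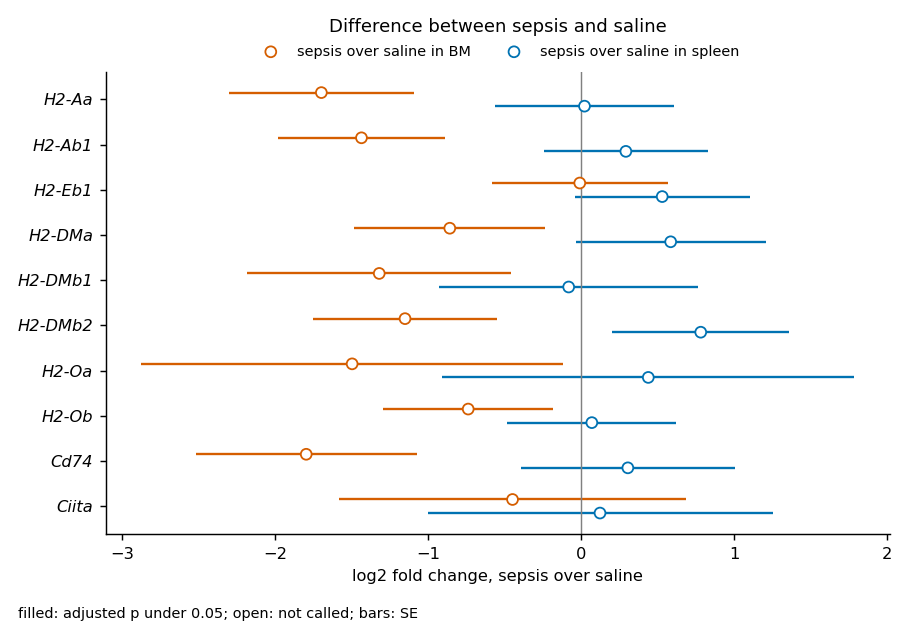
Log2 fold change of sepsis over saline for each of the 10 genes in BM (orange) and in spleen (blue), with bars for the SE. No point is filled, because none had an adjusted p under 0.05, and the BM value is the lower one for all 10 genes.

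Whether sepsis acted differently in the tissues was tested as an interaction. It was positive for all 10 genes, against 51.5% of all tested genes, with a median of 1.58, but 0 of the 10 and 0 of 20263 genes were called by edgeR. An unadjusted p under 0.05 was reached by 3 genes, namely H2-Ab1 (1.73 ± 0.76), H2-DMb2 (1.93 ± 0.83) and Cd74 (2.10 ± 1.001), and by 7.68% of all tested genes (1556). In edgeR the adjusted p of these 3 was 0.628, 0.624 and 0.648. The count of 3 became 5 without spleen sepsis replicate 3 and 4 without BM saline replicate 3 or spleen saline replicate 3. It was 2 without spleen saline replicate 1, BM sepsis replicate 2 or spleen sepsis replicate 2, and 1 without BM saline replicate 1. Without spleen sepsis replicate 1 or spleen saline replicate 2 it was 0. The count over all tested genes moved as well. It was 2587 of 25900 without spleen sepsis replicate 3, 2190 of 26112 without BM saline replicate 3 and 2866 of 24808 without spleen saline replicate 3. It was 2389 of 25324 without spleen sepsis replicate 1 and 2218 of 23354 without spleen saline replicate 2. With no filter on low counts edgeR called Cd74 (2.11, adjusted p = 0.00025), while DESeq2 called 0 of the 10 and 495 genes in all, and limma-voom called 0 genes in all.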

How the data were processed

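MKs were sorted from BM and spleen, and 12 libraries of 300 cells, 3 for each of 4 groups, were prepared with SMART-Seq HT and Nextera XT. The authors deposited raw counts of reads for each of 55536 genes, without normalization. The submitters' processing notes name STAR 2.7.2b, R 3.6.1, DESeq2 1.26 and the build GRCm38. The sources used here do not give the annotation, the strand setting or how reads were counted. Columns were assigned to groups from their labels. GENCODE release M21 held all of the identifiers.

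The tests used edgeR 4.0.16 under R 4.3.3 (filterByExpr with a minimum count of 10, TMM factors, 4 group means over all 12 libraries, 8 residual degrees of freedom, quasi-likelihood test). P values were adjusted by Benjamini-Hochberg over 20263 genes and called under 0.05. Positive log2 fold changes mean higher in spleen, or after sepsis. The SE and 95% interval follow from the F statistic. CPM used the same factors, and levels were compared between genes per kilobase of exon. Promoters came from RefSeq (GRCm38.p6).

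Alternatives were RLE factors, library size alone, no filter, 10 counts in at least 6 libraries, DESeq2 1.42.0, limma-voom with quality weights (limma 3.58.1), a separate fit of each comparison's 6 libraries, a block for the replicate number, leaving out immunoglobulin and T cell receptor segments, and dropping each library in turn. Thinning to 7756762 counts per library and the longer Y box were chosen after seeing the data. Scripts were tested on simulated counts. Figures were drawn with Python 3.11.15 and matplotlib 3.10.9.

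The 10 genes and all lists were chosen with earlier results of these data known. Named were the 10 genes, the genes of the lists, with called ones first, and the 8 genes most like the mean of the 10, by Pearson's r of log2 CPM (prior count 2), outside immunoglobulin and T cell receptor segments. Totals of 7756762 to 27386184 counts give small counting errors for most values; the common dispersion of 2.05 corresponds to a coefficient of variation of 143% between libraries, which sets the precision. The limit of 3 counts for a 0 covers counting error only. Some genes of the lists, and a surface marker of the gate, are counted where they belong but not reported here by name.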

Additional observations from a re-analysis of the deposited data

How the results depend on the processing

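The tissue difference kept its positive sign for all 10 genes in both comparisons under all 22 alternatives, with 5 to 7 of the 10 called after saline and 6 to 10 after sepsis. The count of all genes called was larger than 253 and 361 without the filter on low counts (529 after saline, 595 after sepsis), with DESeq2 (1312 and 1472) and, after sepsis, with limma-voom (724); leaving out 1 library gave 197 to 467 after saline. Scaling moved the median log2 fold change of all genes from 0.28 to 0.54 with RLE factors and to -0.20 with library size alone after saline, and from 0.18 to 0.30 and -0.34 after sepsis. The share of calls that were higher in spleen was 58.1%, 69.7% and 30.3% in that order after saline and 66.5%, 70.9% and 43.7% after sepsis, while the median of the 10 genes was 4.204, 4.46 and 3.72, and 5.47, 5.58 and 4.83. Library size alone lowered the values after sepsis of H2-DMb2 to 6.93, H2-DMa to 2.64, H2-Ob to 3.87, H2-Ab1 to 5.80 and Cd74 to 6.81, and left all 5 called.

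Between sepsis and saline in BM, 81 genes were called without the filter, 2 of them among the 10 (Cd74 and H2-Aa), 206 with DESeq2, and 0 to 12 with 1 library left out. In spleen, where the count was 32, it was 187 without the filter, 20 with the stricter filter, 986 with DESeq2, 0 with limma-voom, 0 with 6 libraries alone and 48 to 138 with 1 library left out. For the interaction 130 genes were called without the filter, 1 of them Cd74, 495 with DESeq2 and 3 to 48 with 1 library left out. Among the 10 genes, signs turned only in these comparisons, where none had been called under the reported settings. In BM, Ciita was 0.10 with the replicate block, H2-Oa 0.095 with limma-voom, and H2-Eb1 0.038 without the filter and 0.023 without segment genes; leaving out 1 library gave -1.003 to 0.074 for Ciita, -2.26 to 0.13 for H2-Oa and -0.73 to 0.47 for H2-Eb1.

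In spleen, limma-voom gave -0.20 for Ciita and -0.16 for H2-Oa. H2-Aa was -0.18 with RLE factors, -0.070 with library size alone, -0.061 with the stricter filter, -0.18 with DESeq2, -0.057 with 6 libraries alone, -0.036 with the replicate block, -0.011 without segment genes and -0.026 after thinning. H2-Ob was -0.16 with RLE factors, -0.029 with library size alone, -0.028 with the stricter filter, -0.16 with DESeq2, -0.025 with 6 libraries alone and -0.0077 with the replicate block, and H2-DMb1 was 0.023 with library size alone and 0.19 with the replicate block. Leaving out 1 library gave -0.20 to 0.84 for Cd74, -0.75 to 1.297 for Ciita, -0.27 to 0.45 for H2-Aa, -0.0053 to 0.71 for H2-Ab1, -0.46 to 0.37 for H2-DMb1, -0.31 to 1.06 for H2-Oa and -0.16 to 0.42 for H2-Ob. The interaction of H2-Oa was -0.26 with limma-voom, and that of Ciita ranged from -0.31 to 1.73 with 1 library left out. The cause of these changes was not tested. Irf8 lost its call after sepsis in 9 of 22 alternatives.

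On deviations from group means, the 18 correlations between libraries of the same replicate number lay between -0.057 and 0.045. The 36 between libraries of different numbers lay between -0.074 and 0.072. These values cannot tell whether libraries of the same number came from the same animal, which the labels do not state. In the fit with this replicate block, 288 genes were called after saline and 401 after sepsis, 33 between treatments in spleen and 0 in BM, and 6 and 7 of the 10 class II genes between tissues. Counts were few for H2-Oa, Ciita and H2-DMb2 in single BM libraries and for H2-Oa in spleen sepsis replicate 3. The spread between 3 libraries a group limits what can be seen.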
